A study of Macaca fascicularis with 2 samples.

Results

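The ribosomal protein genes described here are the 50 rows of the expression matrix whose symbol is RPL or RPS followed by a number, with an optional A, L, X or Y at the end, or is *RPLP0*, *RPLP1*, *RPLP2* or *RPSA*. They are 50 of the 21371 genes listed, and the RPS6K kinases, which share the first letters only, were left out. The cells came from wild-type male cynomolgus monkeys aged 3 years: nucleus pulposus (NP) of a lumbar disc and articular cartilage (AC) of the femoral condyle of 1 monkey, and AC of the femoral condyle of a second monkey. The dissociated live cells of the 3 tissue samples were pooled into 1 library after staining with the surface tags A951, A952, A953 and A954, and were sequenced by TAS-seq, a bead-based single-cell method that amplifies the cDNA of each cell. No source used here pairs the 4 tags with the tissues, so cells are described by tag and not by tissue. Of 5723 cells, 5653 were kept, each of which bore 1 tag only, and a kept cell held 24907 to 1290096 reads with a median of 198432. A cell counted as notochordal when it held at least 5 reads of *KRT19* and *TBXT* together, a keratin and the transcription factor brachyury, both of which mark cells of notochordal origin. This rule took 404 cells, and the other 5249 cells are called other cells. By tag A951, A952, A953 and A954 there were 79, 285, 15 and 25 notochordal cells and 916, 840, 1362 and 2131 other cells.

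The cytosolic ribosome is built from a small subunit, which reads the mRNA, and a large subunit, which joins the amino acids. Each subunit is a folded ribosomal RNA covered with small proteins, mostly basic and mostly needed in equal numbers, and their mRNAs are short, abundant and translated together under the control of mTOR signaling through a pyrimidine tract at their 5′ end. In cartilage and in the disc, the chondrocytes use ribosomes mainly to make collagen and proteoglycan, whereas the large vacuolated notochordal cells of the young NP are replaced by chondrocyte-like cells with age.

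The 2 classes of cells were first compared on genes that the rule did not use. *CDH2*, the N-cadherin of the notochord, stood at 108 and 109 reads per 1000000 (rpm) in the notochordal cells of A951 and A952, against 0.822 and 0.960 rpm in the other cells of these tags. *SHH*, the hedgehog ligand of the notochord, stood at 30.2 and 111 rpm in the notochordal cells of A951 and A952, against 0.365 and 0.338 rpm. *FOXA2*, a transcription factor of the notochord and floor plate on the same marker list, went the other way, at 0.347 and 0.965 rpm in the notochordal cells of A951 and A952 against 5.72 and 8.46 rpm in the other cells, and its reads were found in 6.93% of notochordal and 7.79% of other cells over all tags. The 15 notochordal cells of A953 held 30.3 rpm of *CDH2* and 1.81 rpm of *SHH*, against 0.874 and 0.378 rpm in the other cells of A953. Of these 15 cells, 10 held 5 to 99 reads of *KRT19* and *TBXT* and 5 held at least 100. In A954 the markers went against the name: the 25 cells that met the rule held 1.19 rpm of *CDH2* and 0.238 rpm of *SHH*, against 0.889 and 0.385 rpm in the other cells of A954. *COL2A1*, the main cartilage collagen, stood at 18319 rpm in these 25 cells and at 18506 rpm in the other cells of A954. In the notochordal cells of A951, A952 and A953 it stood at 4109, 2053 and 8276 rpm. Of these 25 cells, 24 held 5 to 99 reads of *KRT19* and *TBXT* and 1 held at least 100. What put these cells past the limit of 5 reads was not tested. They are kept in the values over all tags. The main shares, medians and counts that compare the classes are therefore also given over A951 and A952 alone. Other comparisons of the classes are given over all tags only and include these 25 cells. *KRT8*, *KRT18* and *CD24* of the notochordal marker list were not analysed here, and *NOTO* was at 0.0226 rpm in notochordal cells and 0.0519 rpm in other cells.

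The 50 genes fell into 20 of the small subunit and 30 of the large subunit, including the 3 stalk proteins. Of 80 genes that make up the usual list of cytosolic ribosomal proteins, 47 were among them, *RACK1* carries a symbol outside the rule and is described further on, and 31 were not analysed here, so that the sums below cover only some of the ribosome. *RPL3L*, *RPS27L* and *RPL10L* are paralogs outside that list. Reads of 42 of the 50 genes were found in at least 99% of other cells, and reads of 36 in at least 99% of notochordal cells. Of the 50 genes, 7 had reads in fewer than 90% of other cells. Among these, *RPL8*, *RPL7A* and *RPL10L* stood at 1.60, 2.03 and 0.105 rpm in other cells and did not pass the filter of 5 rpm, so that 47 genes enter the comparisons gene by gene. A separate row named *RPL8.1*, which the rule does not take, held 2216 rpm in other cells and 1604 rpm in notochordal cells, so the level in the row *RPL8* is not that of this gene as a whole. *RPS15A* passed the filter at 9.26 rpm. Ribosomal protein genes have many near-identical pseudogene copies, and the counting allowed reads that map to several places, so the level of each gene is uncertain to that extent. Levels are not compared between genes, because they were not divided by length.

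Ribosomal protein genes took a smaller share of the reads of notochordal cells than of other cells. Pooled over cells, the share was 8.10% (95% exact binomial interval 8.09 to 8.10%) in notochordal cells and 9.75% (9.75 to 9.75%) in other cells, a log2 ratio of -0.27. These intervals cover the counting error of reads only. PCR copies are counted as separate reads, so the error of counting molecules is not covered. The 4 tags came from 1 library and cells are not replicates, so no test was made and no p-value is given. The spread between cells was wide in both classes. The middle 50% of notochordal cells lay between 6.78% and 9.31% around a median of 8.01%, and that of other cells between 8.08% and 11.2% around a median of 9.57%. Per cell, the coefficient of variation of the share was 27.3% in notochordal cells and 27.8% in other cells.

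Within tags the share was again lower in notochordal cells, by amounts that differed between tags. In A951 it was 8.59% in notochordal cells and 9.30% in other cells. In A952 it was 7.81% against 9.30%, and in A953 it was 7.80% against 9.61%. In A954 it was 9.49% against 10.1%. The log2 ratios were -0.11, -0.25, -0.30 and -0.09 in this order, so the ratio over all tags was larger in size than that within 3 of the 4 tags. The notochordal cells of A954, whose markers went against the name, lay above the other cells of A951 and A952, hence the classes overlapped when tags were mixed. Over A951, A952 and A953 the shares of the classes did not overlap. In A953 this rests on 15 notochordal cells, of which 10 held only 5 to 99 reads of *KRT19* and *TBXT*. Over A951 and A952 alone, the log2 ratio was -0.22, and without A952, which held 285 of the 404 notochordal cells, it was -0.17.

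The same comparison was made among cells with similar numbers of detected genes. Kept cells were divided into tertiles at 3273 and 4386 genes, giving 127, 125 and 152 notochordal cells and 1760, 1757 and 1732 other cells in the low, middle and high tertile. The share was 8.10% against 10.1% in the low tertile, 8.51% against 9.79% in the middle tertile and 7.94% against 9.63% in the high tertile. It was lower in notochordal cells in all 3 tertiles and in 11 of the 12 sets formed by tag and tertile. The exception was the low tertile of A954, where 6 notochordal cells held 10.9% and 595 other cells held 10.6%. Over A951 and A952 alone, the share was 7.89% against 9.88%, 8.44% against 9.38% and 7.76% against 8.99% in the low, middle and high tertile. In A952, with the most notochordal cells, the log2 ratio was -0.34, -0.18 and -0.23 in the low, middle and high tertile.

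**Figure D1:**
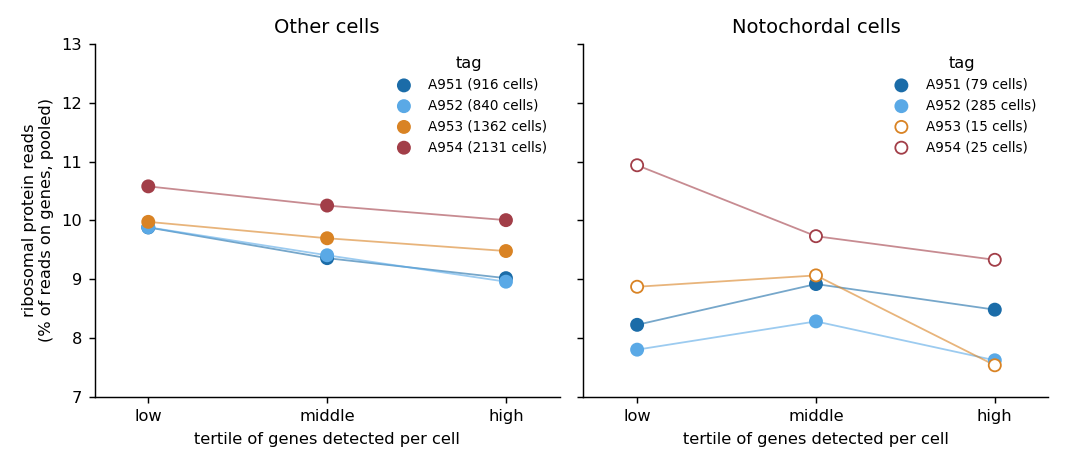
Share of reads on ribosomal protein genes (percent of all reads on genes, pooled over the cells of a set) by tertile of genes detected per cell, for other cells and notochordal cells of the 4 tags; open circles mark sets of fewer than 20 cells. In other cells each tag falls from the low to the high tertile and A954 lies highest, and the notochordal cells of A951 and A952 lie below the other cells of the same tag in each tertile.

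The share was next set against the number of *KRT19* and *TBXT* reads in a cell. It was 9.79% in the 4321 cells without such a read, 9.59% in the 854 cells with 1 to 2 reads and 9.82% in the 74 cells with 3 to 4 reads. Below the limit of 5 reads the share thus changed little. Above the limit it was 8.49% in 26 cells with 5 to 9 reads, 8.76% in 69 cells with 10 to 99 reads, 8.02% in 217 cells with 100 to 499 reads and 7.80% in 92 cells with 500 or more. The tags were mixed unequally over these classes. Depth differed as well, and its part was not tested. From no such read to 500 or more, the median cell held 186445, 277490, 359884, 326494, 112440, 154449 and 291432 reads. Over A951 and A952 alone, the share was 9.30%, 9.33% and 9.12% in the 1490, 247 and 19 cells with 0, 1 to 2 and 3 to 4 reads. In these tags it lay between 7.88% and 8.02% in the 4 classes above the limit, which held 6, 55, 213 and 90 cells. In A952 the share was 7.78% in the 239 cells with at least 100 reads and 8.02% in the 46 cells with 5 to 99 reads. In A951 the order was the opposite, with 8.72% in 64 cells and 7.92% in 15 cells.

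**Figure D2:**
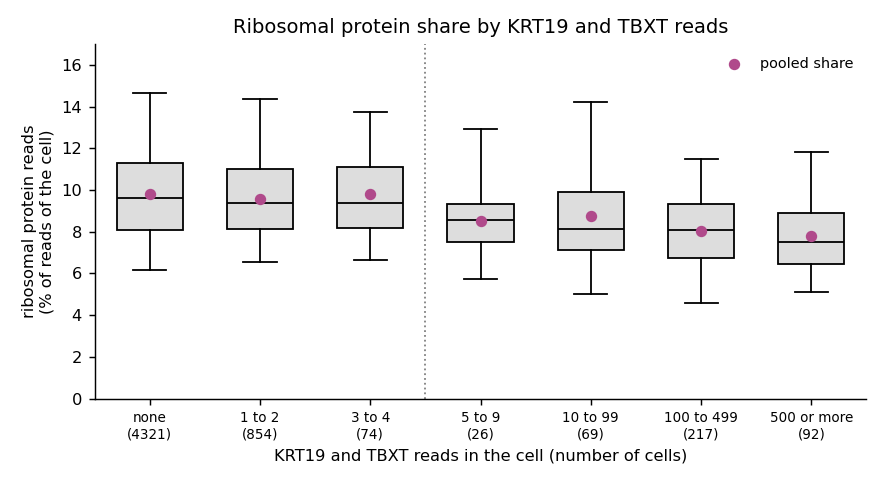
Share of reads on ribosomal protein genes per cell (percent of the reads of the cell) by the number of KRT19 and TBXT reads in the cell; boxes show the middle 50% of cells with the median, whiskers the 5th to 95th percentile, and filled circles the pooled share. The pooled share lies between 9.59% and 9.82% left of the dotted line, which marks the limit of 5 reads, and between 7.80% and 8.76% right of it.

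Gene by gene, nearly all ribosomal protein genes were somewhat lower in notochordal cells. Of the 47 genes, 46 had a log2 ratio below 0, where 36% of the 9094 genes that passed the filter did. The median log2 ratio was -0.25 (middle 50% -0.36 to -0.18, SD 0.167 over genes), against a median of 0.27 over the 9094 genes with an SD of 1.32. Relative to the median of the 9094 genes, the median of the ribosomal protein genes was -0.53. Without A952 their median was -0.16, and without the 50 most abundant genes in the denominator it was -0.43. At least 1.5-fold lower were 3 of the 47 genes, *RPL36*, *RPL27A* and *RPL36A*, where 14.6% of the 9094 genes were, and none was at least 1.5-fold higher, where 35.2% were. At a log2 ratio of at least 0.32 in size, 17 were lower, where 22.2% of all genes were, and 0 were higher, where 47.3% were. The number past 1.5-fold turned on the scale. With the median of all genes set to 0, 18 of the 47 genes were at least 1.5-fold lower, where 22.6% of all genes were, and without the 50 most abundant genes in the denominator 5 were, where 19.3% of 9457 genes were. None was at least 1.5-fold higher on either scale, where 25.4% and 29.3% of all genes were. Without A952 only *RPL36* was at least 1.5-fold lower, and without A953 only *RPL36* and *RPL27A* were.

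Many of the genes were also lower within tags and tertiles. Of the 47 genes, 24 were lower in the notochordal cells of all 4 tags, where 10.4% of the 9094 genes were. In 9 of them, *RPL36*, *RPL28*, *RPL36A*, *RPL15*, *RPL13*, *RPLP2*, *RPS21*, *RPS16* and *RPS3A*, the values of the 4 tags did not overlap between the classes, where 5.53% of the 9094 genes were lower without overlap. Both counts take in the 25 cells of A954 whose markers went against the name. Over A951, A952 and A953, with only 15 notochordal cells in A953, 30 of the 47 genes were lower in each tag, where 16.7% of all genes were. Of the 47, 28 did not overlap, where 12.3% of all genes did not. With A951 and A952 only, these numbers were 31, where 27.9% were, and 30, where 25.8% were. In all cells, 38 were lower in all 3 tertiles, where 22.6% were. The numbers lower within A951, A952, A953 and A954 were 32, 43, 44 and 38, where 41.1%, 37.2%, 49.6% and 57.4% of the 9094 genes were. The median log2 ratio of the ribosomal protein genes within these tags was -0.07, -0.24, -0.30 and -0.09, while that of all genes was 0.30, 0.32, 0.12 and -0.06. In A954 the median of the ribosomal protein genes was therefore close to that of all genes. Within the low, middle and high tertile, 45, 38 and 47 of the 47 genes were lower, where 38.8%, 38.3% and 38.8% of the 9094 genes were. The medians of the ribosomal protein genes were -0.32, -0.18 and -0.30, and those of all genes 0.35, 0.33 and 0.21. Over A951 and A952 alone, the median was -0.21 against 0.32 over all genes, with 41 of the 47 genes below 0, where 35.7% of all genes were. There *RPL36*, *RPL27A*, *RPL36A* and *RPL28* were at least 1.5-fold lower, where 17.2% of 9144 genes were, and 0 were higher, where 38.7% were.

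**Figure D3:**
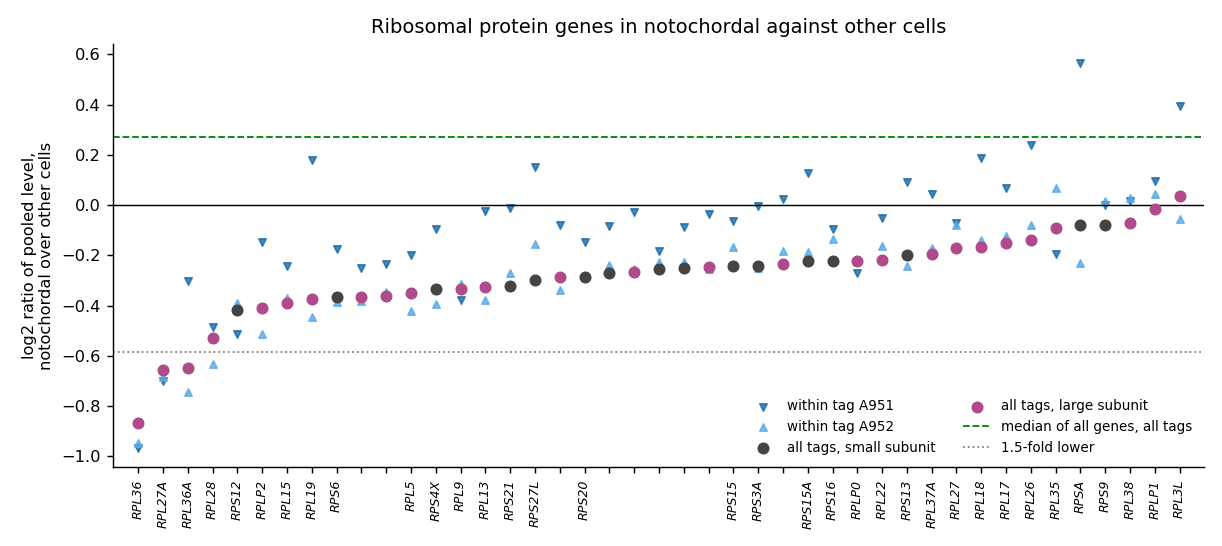
Log2 ratio of the pooled level (rpm) in notochordal over other cells for 43 of the 47 ribosomal protein genes that passed the filter, with the names of genes named in the text, in order of the ratio over all tags (circles, by subunit), with the ratios within tags A951 and A952 (triangles). All genes shown but RPL3L lie below 0 over all tags, all 43 lie below the median of all genes at 0.27, and RPL36, RPL27A and RPL36A lie below the dotted line at 1.5-fold lower.

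The lowest ratios belonged to proteins of the large subunit. *RPL36*, a small basic protein of the large subunit, stood at 1145, 1096, 1327 and 1711 rpm in the notochordal cells of A951, A952, A953 and A954, and at 2236, 2113, 2095 and 2162 rpm in the other cells. The values of the classes did not overlap over the 4 tags. Over all cells, it stood at 1177 rpm (95% exact Poisson interval 1170 to 1184) against 2149 rpm (2147 to 2152), a log2 ratio of -0.87. The ratio was -0.90, -0.93 and -0.83 in the 3 tertiles from low to high, hence nearly the same at each number of detected genes. *RPL27A*, another large-subunit protein, stood at 981, 982, 1146 and 1628 rpm in notochordal cells and at 1592, 1580, 1604 and 1738 rpm in other cells. Here the notochordal cells of A954 reached the other cells of the remaining tags, and the log2 ratio over all cells was -0.65. *RPL36A*, a protein of the tRNA exit site, stood at 523, 387, 551 and 454 rpm against 645, 649, 817 and 593 rpm, with a log2 ratio of -0.65. Its values did not overlap between the classes, although its other cells also differed between tags.

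Close to the limit of 1.5-fold lay *RPL28*, a large-subunit protein found in animals and not in budding yeast. It stood at 1719, 1589, 2059 and 2229 rpm in the notochordal cells of the 4 tags and at 2409, 2465, 2480 and 2448 rpm in the other cells, a log2 ratio of -0.53. The other cells of the 4 tags were close together and all above the notochordal cells. *RPL15*, an early-assembling protein of the large subunit, stood at 986, 919, 912 and 1070 rpm against 1165, 1188, 1229 and 1278 rpm, with a log2 ratio of -0.39 and again no overlap. *RPL19*, which forms a bridge between the subunits, had a log2 ratio of -0.38 over all cells, but in A951 it was higher in notochordal cells, at 2010 rpm against 1776 rpm. Among large-subunit proteins at the exit of the peptide tunnel, *RPL35*, *RPL26* and *RPL17* had log2 ratios of -0.09, -0.14 and -0.15. *RPL26* turned its direction in A951, at 1875 rpm in notochordal cells and 1589 rpm in other cells. *RPL17* was also higher in the notochordal cells of A951, at 2978 against 2839 rpm, and *RPL35* in those of A952, at 1505 against 1436 rpm. *RPL38*, known for its part in the translation of Hox mRNAs, stood at 934, 933, 929 and 1018 rpm in notochordal cells and at 922, 915, 937 and 1067 rpm in other cells, so that the classes overlapped. *RPL5*, which carries the 5S RNA to the ribosome and with it can bind MDM2, had a log2 ratio of -0.35 over all cells, and -0.20, -0.42, -0.59 and 0.00 in A951, A952, A953 and A954. Its partner *RPL11* was not analysed here.

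The stalk of the large subunit recruits the elongation factors, and its 3 proteins differed in their ratios. *RPLP0*, the base of the stalk, stood at 2039, 2090, 1897 and 2524 rpm in the notochordal cells of A951, A952, A953 and A954 and at 2457, 2440, 2478 and 2459 rpm in other cells, with a log2 ratio of -0.22. Its other cells were nearly equal over the tags, and only the notochordal cells of A954 lay above them. *RPLP1* stood at 8138, 7997, 6837 and 7514 rpm against 7611, 7749, 8187 and 8073 rpm, a log2 ratio of -0.02. It was higher in notochordal cells in A951 and A952 and lower in A953 and A954. *RPLP2*, which pairs with *RPLP1* in the stalk, stood at 2101, 1624, 2304 and 2257 rpm against 2326, 2318, 2519 and 2372 rpm, a log2 ratio of -0.41 without overlap. The members of this pair thus had different ratios in the same cells.

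All 20 small-subunit genes had log2 ratios below 0, from -0.42 to -0.07 with a median of -0.25. The 24 large-subunit genes outside the stalk had a median of -0.28, and 23 of them were below 0. In A951 and A952 together, 18 of the 20 and 21 of the 24 were below 0, with medians of -0.19 and -0.25. *RPS12* had the lowest ratio of the small subunit, at 3286, 3585, 3401 and 4765 rpm in the notochordal cells of the 4 tags against 4691, 4704, 4605 and 5118 rpm, a log2 ratio of -0.42. The notochordal cells of A954 lay within the range of the other cells. *RPS6*, the substrate of the S6 kinases downstream of mTOR, stood at 1397, 1192, 1404 and 1581 rpm against 1575, 1558, 1641 and 1695 rpm, a log2 ratio of -0.37. It was lower in the notochordal cells of each tag, with an overlap between tags.

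Among the small-subunit genes with ratios nearest 0 were *RPS9* and *RPSA*, both with a log2 ratio of -0.08. *RPSA*, which is also known as the laminin receptor precursor, held different directions in different tags. In notochordal cells it stood at 2493, 1448, 1568 and 1658 rpm, and in other cells at 1685, 1699, 1688 and 1802 rpm. The log2 ratio was 0.57 in A951 and -0.23 in A952, so the small ratio over all tags is a sum of unlike values. *RPS9* differed little in any tag, with log2 ratios between -0.09 and 0.09. The sum of the small-subunit genes over that of the large-subunit genes was 0.635 in notochordal cells and 0.641 in other cells, and it lay between 0.616 and 0.658 over the other cells of the 4 tags. The balance between the subunits therefore differed less between the classes than between tags.

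The paralogs had ratios on both sides of 0. *RPL3L*, the counterpart of *RPL3* in striated muscle, was the only 1 of the 47 genes above 0, with a log2 ratio of 0.04. It stood at 70.5, 55.9, 3.45 and 67.9 rpm in the notochordal cells of the 4 tags and at 53.7, 58.0, 31.8 and 67.6 rpm in other cells, and reads were found in 36.1% of notochordal and 34.2% of other cells. *RPL3* itself was not analysed here. *RPS27L*, a paralog of *RPS27*, had a log2 ratio of -0.30, although it was higher in the notochordal cells of A951 and A953. Outside the 50 genes, *RPL22L1*, a paralog of *RPL22*, stood at 304 rpm in notochordal and 248 rpm in other cells, whereas *RPL22* stood at 1024 and 1191 rpm. The paralog and *RPL22* differed in direction in A951 and A952, where *RPL22L1* had log2 ratios of 0.57 and 0.35 and *RPL22* had -0.05 and -0.16. In A953 and A954 *RPL22L1* was lower in notochordal cells as well, with -0.97 and -0.49. *RPS4Y2*, the paralog of *RPS4X* on the Y chromosome, had a log2 ratio of 0.35, and *RPS4X* had -0.33. *RPL7L1* had a log2 ratio of -0.18, while *RPL7*, *RPL10*, *RPL39* and *RPS27A* were not analysed here. *RPL10L*, a paralog used in the testis, had reads in 2.48% of notochordal and 2.46% of other cells.

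Among other cells, the share of ribosomal protein reads was slightly higher where fewer genes were detected. It was 10.1%, 9.79% and 9.63% in the low, middle and high tertile, a log2 ratio of 0.07 between low and high. The order held in each tag, with log2 ratios of 0.13, 0.14, 0.07 and 0.08 in A951, A952, A953 and A954. Over single cells, Pearson's r of the share with log2 genes detected was -0.10 over 5249 other cells and -0.03 over 404 notochordal cells. These points share 1 library, and the reads of a cell enter both measures. Of the 47 genes, 0 were past 1.5-fold in either direction, where 2.37% of 8506 genes were lower and 3.9% higher in the low tertile. The median log2 ratio was 0.08, with 42 of the 47 genes above 0 and 5 below, against a median of 0.01 over the 8506 genes with 47.6% below 0. The level fell from low through middle to high in 34 genes, where 21.3% of all genes did, and it was higher in the low than in the high tertile of all 4 tags in 32 genes, where 10.4% did.

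The genes with the largest tertile ratios were *RPS21*, *RPS13*, *RPL37A*, *RPL13* and *RPL18*, with log2 ratios of 0.17, 0.13, 0.13, 0.13 and 0.12. *RPS21*, a small-subunit protein needed for late steps of 18S RNA maturation, stood at 1766, 1619 and 1566 rpm in the low, middle and high tertile. Its ratio was 0.30, 0.26, 0.15 and 0.17 in the 4 tags. At the other end, *RPL3L* stood at 50.1, 52.8 and 56.9 rpm with a log2 ratio of -0.18, and *RPL36A*, *RPS15* and *RPL27* had -0.04, -0.00 and -0.00. The ratio of *RPL3L* was negative in A951, A952 and A953 and 0.05 in A954. The median ratio between tertiles was smaller in size than that between notochordal and other cells.

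Between tags, the other cells of A954 held the largest share of ribosomal protein reads. The share was 9.30%, 9.30%, 9.61% and 10.1% in A951, A952, A953 and A954, and the log2 ratio of A954 over A951 was 0.12. In single cells the medians were 9.20%, 9.27%, 9.32% and 9.96%, and the middle 50% of cells of the 4 tags overlapped widely. The other cells of A954 also had the most reads and genes, with medians of 220735 reads and 4035 genes against 185300 and 3648 in A951. Of the 47 genes, 31 were highest in A954, where 23.3% of 8501 genes were, 15 in A953, where 32.1% were, 1 in A951, where 21.3% were, and 0 in A952, where 23.3% were. The gene highest in A951 was *RPL36*, chosen here after its values were seen, with 2236 rpm against 2095 to 2162 rpm. The median log2 ratio of A954 over A951 was 0.13 with 45 of the 47 genes above 0 and 2 below, and that over all genes was 0.00 with 49.6% below 0. None of the 47 genes was past 1.5-fold between these tags, where 4.5% of 8506 genes were lower and 3.88% higher in A954.

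Among the genes with the largest range over tags were *RPL3L*, *RPL36A*, *RPL35* and *RPS27L*, with ranges of 1.09, 0.46, 0.44 and 0.43 on the log2 scale. *RPL35* stood at 1478, 1436, 1297 and 1761 rpm in the other cells of A951, A952, A953 and A954, so that A953 was lowest and A954 highest. *RPL36A* had the reverse order of A953 and A954, with 817 rpm in A953 and 593 rpm in A954. Since the tags are not paired with tissues or monkeys here, tissue, animal and staining cannot be told apart in these differences.

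**Figure D4:**
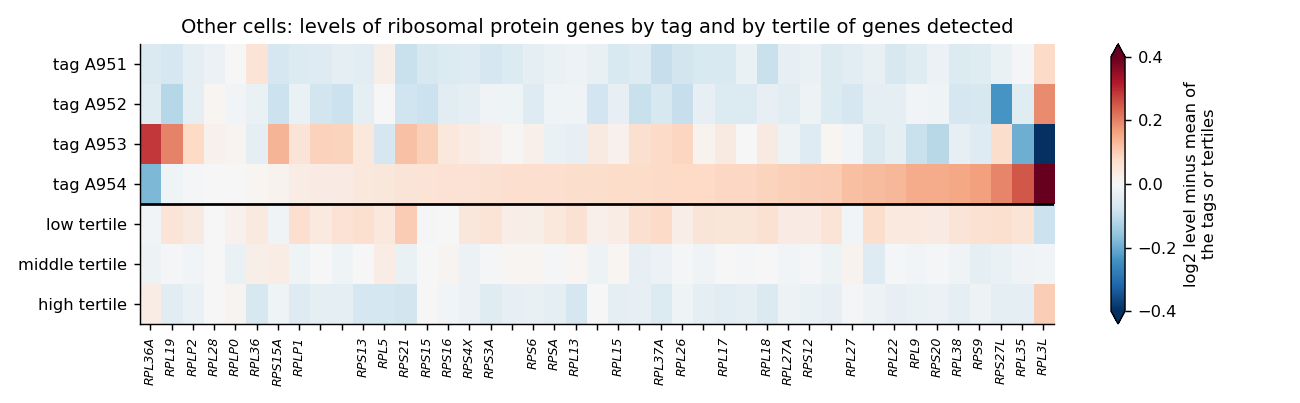
Level of 43 of the 47 ribosomal protein genes in other cells, with the names of genes named in the text, as log2 level minus its mean over the 4 tags (upper rows) or over the 3 tertiles of genes detected (lower rows); genes are ordered by the value in A954, and values past 0.4 in either direction take the end colours. A954 is positive for most genes, and RPL36A, RPL35 and RPL3L are among those that differ most between A953 and A954.

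Ribosomal protein genes varied together from cell to cell. Over the 1757 other cells of the middle tertile, the Pearson correlation of each gene with the sum of the remaining ribosomal protein genes, both as log2(rpm + 1), had a median of 0.46 over the 44 genes found in at least 90% of these cells, from 0.25 to 0.61. For 531 other genes found as often, the correlation with the summed ribosomal protein genes had a median of -0.01. All values of a cell share its total of reads, and these correlations are given as a description. Among the highest values were those of *RPS20* and *RPL9*, chosen here after their values were seen, with 0.61 and 0.59. Outside the 50 genes, the 10 genes most like the sum included *ANKS1B*, *C17orf75*, *TPT1*, *ELOA*, *ST8SIA6*, *RPL8.1*, *FUT8*, *KIF14* and *SBSPON*, with correlations of 0.48, 0.47, 0.43, 0.42, 0.42, 0.39, 0.39, 0.36 and 0.36. *TPT1* encodes a translationally controlled protein whose mRNA has a 5′ pyrimidine tract as well.

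The other genes of the translation machinery were described from lists chosen by function. *RACK1*, a scaffold on the small subunit, stood at 673 rpm in notochordal and 827 rpm in other cells, a log2 ratio of -0.30. It lay within the range of the ribosomal protein genes. Of the 8 genes of the elongation list, 6 were not analysed here, among them the main elongation factors, and *EEF1A2* did not pass the filter. *TPT1* passed it, with 2502 against 3194 rpm and a log2 ratio of -0.35. The 25 initiation factors had a median log2 ratio of -0.27, close to that of the ribosomal protein genes. Of these, 18 were below 0, where 36% of the 9094 genes were. At least 1.5-fold lower were 4, where 14.6% of all genes were, and 0 were higher, where 35.2% were. Without A953 and A954 the median was -0.29, with 16 below 0, where 35.7% of all genes were. In that case 6 were at least 1.5-fold lower, where 17.2% were, and 0 higher, where 38.7% were. The 4 genes over all tags were *EIF4EBP1*, *EIF4G1* and *EIF5*, with log2 ratios of -1.07, -0.63 and -0.59, and *EIF2S2*, a subunit of the factor that brings the initiator tRNA, with 309 against 619.8 rpm. *EIF4EBP1*, the mTOR-controlled repressor of cap binding, stood at 108, 192, 506 and 272 rpm in the notochordal cells of the 4 tags and at 396, 423, 474 and 419 rpm in other cells, so that A953 went the other way.

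The 36 ribosome biogenesis genes had a median log2 ratio of -0.33, with 28 below 0, where 36% of the 9094 genes were. Among them 13 were at least 1.5-fold lower, where 14.6% of all genes were, and 4 were higher, where 35.2% were. The median over A951 and A952 was -0.49, with 27 below 0, where 35.7% of all genes were. There 15 were at least 1.5-fold lower, where 17.2% were, and 3 higher, where 38.7% were. Among the lowest were *RRP9*, *UTP4*, *BYSL* and *NOB1*, factors of small-subunit assembly, with -1.28, -1.23, -1.22 and -1.21. *BYSL* stood at 19.0, 25.6, 46.8 and 40.1 rpm in notochordal cells and at 73.9, 76.0, 67.0 and 54.0 rpm in other cells, without overlap. The higher genes included *SBDS*, which frees the large subunit for joining, at 346 against 220 rpm and a log2 ratio of 0.65. *NCL* and *NPM1*, both nucleolar proteins, had log2 ratios of -0.25 and -0.11. The 60 mitochondrial ribosomal protein genes, which serve the separate ribosome of the mitochondria, had a median of -0.03. Of these, 32 were below 0, where 36% of all genes were. At least 1.5-fold lower were 8, where 14.6% were, and 8 were higher, where 35.2% were. In A951 and A952 together, where 59 passed the filter, the median was 0.09, with 26 below 0, where 35.7% of all genes were. Of the 59, 9 were at least 1.5-fold lower, where 17.2% were, and 12 higher, where 38.7% were. They were spread to both sides of 0 in either case.

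The 10 regulators that passed the filter had a median log2 ratio of 0.20, with 4 below 0, where 36% of all genes were. At least 1.5-fold higher were 2, *RPTOR* and *MTOR*, where 35.2% were. Their median over A951 and A952 was -0.00, with 5 below 0, where 35.7% of all genes were. In these tags 2 were at least 1.5-fold higher, *RPTOR* and the S6 kinase gene *RPS6KB2*, where 38.7% were. The value of *RPS6KB2* rested on A951, at 65.9 against 16.9 rpm, since A952 had 18.0 against 15.1 rpm. Over A951 and A952 *MTOR* had a log2 ratio of 0.42, and it was lower in the notochordal cells of A951, at 9.10 against 14.2 rpm. *RPTOR*, the subunit of mTOR complex 1 that binds its substrates, stood at 115, 181, 109 and 17.6 rpm in the notochordal cells of the 4 tags and at 38.4, 40.9, 25.2 and 32.6 rpm in other cells. It was higher in A951, A952 and A953 and lower in A954, and over all cells it stood at 149.9 against 32.7 rpm. Reads of *RPTOR* were found in 67.6% of notochordal and 56.9% of other cells. *MYC*, an activator of ribosome production, stood at 441, 367, 175 and 693 rpm in the notochordal cells of the 4 tags and at 362, 388, 225 and 333 rpm in other cells. Its log2 ratio was 0.33 over all tags and 0.03 over A951 and A952, with the largest difference in the 25 cells of A954. *ATF4*, the stress factor whose mRNA is translated when initiation is limited, had a log2 ratio of -0.43, and -0.41 over A951 and A952. Of the 9094 genes, 14.6% were at least 1.5-fold lower and 35.2% at least 1.5-fold higher, and each list is to be read against these shares, or against 17.2% and 38.7% over A951 and A952. Nothing here is particular to a list by a test.

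**Figure D5:**
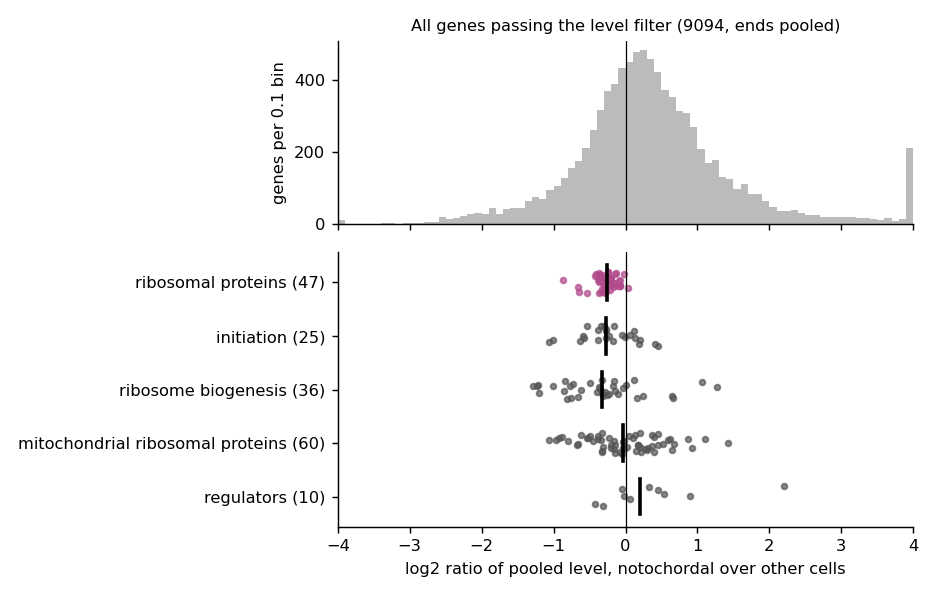
Log2 ratio of the pooled level (rpm) in notochordal over other cells, for all 9094 genes that passed the filter (histogram, genes per 0.1 bin, with values past 4 in either direction pooled in the end bins) and for the genes of each list (points, with the median as a bar). The ribosomal protein genes lie in a narrow band around -0.25, whereas the biogenesis and mitochondrial ribosomal protein genes spread over more than 2 log2 units.

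Several other measures moved with the classes, and their part in the ribosomal protein share was not tested. The 8 chondrocyte markers summed to 22297 rpm in notochordal and 37687 rpm in other cells, with *COL2A1* the most abundant over all cells. In notochordal cells *ACAN*, the main cartilage proteoglycan, stood at 12539 rpm against 3915 rpm in other cells. The 50 genes with the most reads included 15 ribosomal protein genes, and the other 35 took 12.3% of the reads of notochordal cells and 21.0% of those of other cells. With these 50 genes left out of the denominator only, the log2 ratio of ribosomal protein reads to the remaining reads was -0.44. The 15 ribosomal protein genes among them stayed in the numerator. The 50 genes took 16.6% of the reads of notochordal cells and 26.1% of those of other cells. A ratio larger in size thus followed from the change of denominator. The median cell of the notochordal class held 177516 reads on 3889 genes, and that of the other class 199610 reads on 3824 genes. Mitochondrial genes took 1.43% and 1.56% of the reads. Every cell was also thinned to 50000 reads, which left out 17 notochordal and 190 other cells. The log2 ratio of the ribosomal protein share was then -0.27 as before.

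Markers of further cell types were low in both classes or differed as follows. The 6 fibroblast markers summed to 1763 rpm in notochordal and 3767 rpm in other cells. *COL3A1* led the list in other cells, at 1901 rpm against 390.1 rpm in notochordal cells. *COL1A2* led it in notochordal cells, at 992 rpm against 875 rpm in other cells, and so went against the sum over all tags. Within A951 and A954 it was higher in notochordal cells, at 1392 against 1126 rpm and 892 against 635 rpm. Within A952 and A953 it was lower, at 990 against 1060 rpm and 109 against 1032 rpm. The 4 endothelial markers summed to 6.07 and 2.38 rpm, and the 5 immune markers, led by *CD68*, to 21.7 and 22.6 rpm. Of the erythroid markers only *ALAS2* was analysed, at 0.0226 and 0.0455 rpm. The 6 cycling markers, led by *PCNA*, summed to 123 and 85.2 rpm, and to 466 rpm in the 15 notochordal cells of A953, where *MKI67* stood at 126 rpm. None of the markers analysed in these lists was at 0 in both classes.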

How the data were processed

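Single cells of 1 pooled TAS-seq library were analysed. The authors aligned reads with HISAT2 2.2.1, assigned them to whole genes, introns included, with featureCounts 2.0.2, keeping reads with several matches, and used velocyto to sum them for each cell, with no use of molecular identifiers; the deposited values are raw counts, that is, whole numbers of reads for each gene in each cell. The genome build is not given in the sources used here. Tools and versions are from the submitters' processing notes and the study's methods.

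Cells with a single tag, 200 to 9000 genes and under 5% mitochondrial reads over 13 genes were kept, which removed 21 of 5674 cells. Doublets of 2 tags (42) and untagged cells (7) were left out, and doublets within a tag cannot be seen. Reads were summed over the cells of each class and expressed per 1000000 reads (rpm). Genes with a mean of both classes of at least 5 rpm were compared, and a class with fewer than 3 reads was set to 3. Intervals are 95% exact binomial or Poisson intervals. The tools were numpy 2.4.6, scipy 1.17.1 and matplotlib 3.10.9 under Python 3.11.15. Counts were also simulated for notochordal against other cells, as Poisson draws from 1 pooled profile. They held no spread between cells other than depth, and no PCR copies. The sign was recovered for 100% of 195 genes changed 2-fold, among 8629. This checks the calculation only, since changes of that size were sure to be recovered at this depth.

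Named were the 10 genes with the largest and the 10 with the smallest ratio between the classes, the 5 at each end between tertiles, the 5 with the largest range over tags, stalk proteins and paralogs in any case, and the 10 genes outside the group that correlated most with its sum; some others are named as examples of their lists. A few genes that meet this rule are not reported here. The members and lists were chosen with earlier results of these data known. A matrix of 1358 cell columns, which no sample label lists and which shares 15 of the 5723 cell barcodes, was not used. No sequence of these genes was at hand, so promoters and proteins were not analysed here. The alternatives tried were other denominators, weights, depths, limits on cells, filters, folds, definitions of the classes and tertiles, and leaving out each tag.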

Additional observations from a re-analysis of the deposited data

How the results depend on the processing

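The ribosomal protein share and the median ratio stayed lower in notochordal cells under all alternatives run, and no gene was 1.5-fold higher under any. The log2 ratio of the share (-0.27) became -0.30 with at least 5 reads of both *KRT19* and *TBXT*, -0.30 without members and mitochondrial genes in the denominator, -0.44 without the 50 most abundant genes, -0.28 with equal weight per cell and -0.27 against other cells without such reads. The median ratio (-0.25) became -0.27 with 25 reads per 1000000, -0.28 with at least 5 of both, -0.28 and -0.43 with the 2 denominators. Leaving out a tag gave -0.30 to -0.17 for the share and -0.29 to -0.16 for the median. Of the genes at least 1.5-fold lower (3), there were 17 at a log2 ratio of 0.32, 0 at 2-fold, 5 without the 50 most abundant genes and 1 to 3 without a tag, with 1 (*RPL36*) without A952. Chosen after seeing the data were at least 100 reads (-0.30 for the share, -0.29 for the median), A951 and A952 only (-0.22 and -0.21), repeated symbols added (-0.27 for the share) and the median of all genes set to 0, which gave a median of -0.53 and 18 genes.

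The low over high tertile ratio of the share (0.075) became 0.073 with at least 1000 genes, 0.077 with thinned cells, 0.083 without members and mitochondrial genes, 0.071 without the 50 most abundant genes, 0.084 with equal weight, 0.078 without limits on cells, 0.058 with tertiles of reads, 0.094 with tertiles within each tag and 0.071 to 0.101 without a tag. The highest over lowest tag ratio (0.124) became 0.119 with thinned cells, 0.139 without members and mitochondrial genes, 0.120 without the 50 most abundant genes, 0.118 with equal weight and 0.048 to 0.124 without a tag, with 0.048 without A954. The classes were compared within each tag as values, and no paired test was made, since the 4 tags came from 1 library. With 1 library, neither the spread between animals nor that between tissues is known. The counting error of reads is small beside both the spread between cells and the differences between tags, and that of molecules is not known. The 15 and 25 notochordal cells of A953 and A954 limit the values within these tags.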

Other observations

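Among genes that varied with the ribosomal protein sum from cell to cell, several are not known as genes of the translation machinery, and their reads were spread over nearly all cells. *KIF14*, a mitotic kinesin, had reads in 95.7% of the kept cells at 37.5 reads per 1000000, whereas *MKI67* and *TOP2A*, which mark dividing cells, had reads in 5.93% and 5.13% of them at 5.86 and 7.14 reads per 1000000. *ANKS1B*, *C17orf75*, *ELOA*, *ST8SIA6*, *FUT8* and *SBSPON* had reads in 99.8%, 99.1%, 99.9%, 96.3%, 99.2% and 99.1% of the kept cells. Reads were counted over whole genes with introns and with several matches allowed, and whether reads of other transcripts were counted in these rows was not tested.

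Among the mitochondrial ribosomal protein genes, *MRPL23* and *MRPS30* had the highest ratios, with 109 against 40.9 and 97.5 against 45.4 reads per 1000000 in notochordal against other cells (log2 ratios of 1.42 and 1.10), and *MRPL9* and *MRPL32* the lowest, with 45.3 against 94.8 and 28.9 against 56.3 (-1.06 and -0.96). *MRPL23* was higher in the notochordal cells of A951, A952 and A953, at 144, 119 and 46.5 against 34.3, 39.8 and 41.3, and lower in those of A954, at 22.8 against 43.2. These genes were chosen after their values were seen.

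The 42 doublets of 2 tags held a ribosomal protein share of 9.61%, and the 7 cells without a tag held 8.94%, against 9.64% over the kept cells. In the 21 cells with a single tag outside the limits, the share was 9.60%, with a median of 5.86% mitochondrial reads.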
